A study of Mus musculus with 6 samples.

Results

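NF-κB is a family of dimeric transcription factors, and the IκB proteins are the ankyrin-repeat proteins that bind the dimers. The 10 genes described here are the 5 NF-κB subunit genes, Rel, Rela, Relb, Nfkb1 and Nfkb2, and 5 IκB genes, Nfkbia, Nfkbib, Nfkbie, Nfkbid and Nfkbiz. They are the rows of a count table that carry these symbols, 10 of 23608. All 10 passed the filter on low counts, beside 11614 rows in all that passed. Rel, Rela and Relb carry transactivation domains, whereas Nfkb1 and Nfkb2 encode precursors that are processed to DNA-binding subunits and that can themselves hold dimers in the cytoplasm. Nfkbia, Nfkbib and Nfkbie encode the classical cytoplasmic inhibitors, which the IκB kinase (IKK) complex marks for degradation, and Nfkbid and Nfkbiz encode nuclear IκB proteins that can act as co-regulators. Several of these genes, Nfkbia foremost, are themselves transcribed under NF-κB control, so the family forms feedback loops. In blood cells the pathway is known for its part in inflammatory responses, survival and lymphocyte activation.

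RNA-seq was performed on AML1/ETO 9a (AE9a) leukemia cells, a mouse acute myeloid leukemia made by retroviral expression of a truncated RUNX1-RUNX1T1 fusion. The cells carried the genotype Usp18+/f UBCER-Cre, in which 1 Usp18 allele is floxed and a tamoxifen-activated Cre is driven by the ubiquitin C promoter, a promoter active in all tissues. Recipient mice that had become sick received oil (3 libraries, Usp18+/f) or tamoxifen (3 libraries, labelled Usp18+/D for the deleted allele), and spleens were taken 3 days after injections began, from which GFP+ Lin- c-Kit+ cells were isolated. The methods give 3 mice for each treatment and describe all mice as young adults of both sexes. The oil group carried the floxed allele and the Cre as well, and no tamoxifen group without the floxed allele is in this set, so effects of tamoxifen, of active Cre and of the allele's loss cannot be told apart. Usp18 is a negative regulator of type I interferon signaling, and the comparison asks how its partial loss alters gene expression, NF-κB responsive genes included. In bulk RNA, fewer cells of a type and less RNA per cell cannot be told apart either.

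The libraries held between 17118964 and 20741399 counts and are named by the numbers of the deposited table. Expression is given as CPM, a gene's count divided by the TMM-scaled size of its library, so that libraries of unequal depth can be compared. Tamoxifen 4 stood apart from its group: its log2 CPM correlated across genes at a mean of 0.972 with the other tamoxifen libraries and of 0.983 with the oil libraries, while tamoxifen 1 and 2 correlated at 0.987 with each other. The differences of the 10 genes are therefore given with and without it. Usp18, the targeted gene, was at 9.12, 10.95 and 11.2 CPM in oil 1, 3 and 4, compared with 15.1, 28.0 and 19.4 CPM in tamoxifen 1, 2 and 4, higher rather than lower although labelled as deleted (log2 fold change 0.998, edgeR adjusted p = 0.0739). That difference passed the threshold with DESeq2 (adjusted p = 0.00199), when genes were not filtered (0.0395) and without tamoxifen 4 (0.00654), but not with limma-voom (0.115). Every direction below therefore compares groups by label. Kit, the gene of the sorted marker, was present in every library, at 439 to 451 CPM in oil and 447 to 781 CPM in tamoxifen. Over 11614 genes tested with edgeR's quasi-likelihood test, 1.75% were higher and 0.267% lower in tamoxifen at a Benjamini-Hochberg adjusted p-value under 0.05.

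Sequences before the transcription start were examined for sites that NF-κB could bind. RefSeq promoter windows of the GRCm38.p6 build, which start 250 bases before and end 50 bases after the annotated start, were held for 7 of the 10 genes, as 11 windows. The kB consensus, the DNA motif of the family, was searched on both strands, where both strands can match at the same bases because it is close to a palindrome. It occurred in 7 of the 11 windows, those of Rel, Nfkb2 (3 windows), Nfkbia, Nfkbie and Nfkbid, against 4.51% of all 32851 windows. Windows 2 and 3 of Nfkb2 overlap, and the only match of window 3, GGGACTTTCC, is a site that window 2 also holds. These windows are therefore not independent, and by gene the consensus occurred in 5 of the 7. The 4.51% is a share of windows, and a gene with several windows has more chances of a match. No share by gene was computed over all genes, so the 5 of 7 stands without a background. No match was found in the windows of Rela and Nfkbib. The wider form GGGNNNNNCC, which includes the consensus, occurred in 10 of the 11 windows and in 50.8% of all windows. The interferon response core GAAANNGAAA occurred in 0 of the 11 windows and in 3.44% of all windows. The following 4 windows are printed 5′ to 3′ on the gene's strand with the kB consensus matches in capitals. Rel is shown for the largest difference between the groups, Nfkbia and Nfkbie as inhibitors that were high in tamoxifen 1 and 2, and Nfkb2 as a gene with matches whose level differed little.

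Rel, chr11:23770920-23771219, minus strand: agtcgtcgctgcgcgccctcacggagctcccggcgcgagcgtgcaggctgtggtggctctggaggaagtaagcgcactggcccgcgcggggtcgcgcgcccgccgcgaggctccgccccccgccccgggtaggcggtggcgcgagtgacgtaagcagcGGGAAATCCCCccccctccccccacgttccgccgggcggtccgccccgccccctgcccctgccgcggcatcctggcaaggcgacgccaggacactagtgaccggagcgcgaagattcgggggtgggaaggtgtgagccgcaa

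Nfkbia, chr12:55492598-55492897, minus strand: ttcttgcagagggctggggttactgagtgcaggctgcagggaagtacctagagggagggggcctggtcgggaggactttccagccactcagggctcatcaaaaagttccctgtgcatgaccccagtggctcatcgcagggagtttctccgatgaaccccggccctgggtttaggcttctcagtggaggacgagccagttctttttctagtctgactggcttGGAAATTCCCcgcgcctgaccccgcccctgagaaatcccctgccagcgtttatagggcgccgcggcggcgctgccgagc

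Nfkbie, chr17:45555450-45555749, plus strand: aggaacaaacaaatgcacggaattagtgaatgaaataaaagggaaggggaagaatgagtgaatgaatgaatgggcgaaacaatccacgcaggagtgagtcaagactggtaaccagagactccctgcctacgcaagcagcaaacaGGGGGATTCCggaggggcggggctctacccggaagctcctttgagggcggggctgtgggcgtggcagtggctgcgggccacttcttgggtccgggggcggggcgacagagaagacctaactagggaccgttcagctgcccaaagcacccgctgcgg

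Nfkb2, chr19:46304487-46304786, plus strand: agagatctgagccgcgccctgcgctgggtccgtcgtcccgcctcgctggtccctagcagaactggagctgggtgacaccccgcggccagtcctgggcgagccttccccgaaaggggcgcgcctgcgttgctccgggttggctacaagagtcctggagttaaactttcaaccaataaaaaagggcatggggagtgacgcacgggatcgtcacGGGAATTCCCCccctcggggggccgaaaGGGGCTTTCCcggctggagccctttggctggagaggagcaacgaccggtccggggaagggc

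In Rel a single stretch of overlapping matches began 92 bases before the start, on the sequence GGGAAATCCC and its neighbor. In Nfkbia the match GGAAATTCCC, which reads as the consensus on the other strand, began 29 bases before the start, and in Nfkbie the match GGGGGATTCC began 106 bases before it. This Nfkb2 window, the first of its 3, held 2 separate stretches, which began 39 and 11 bases before the start. Matches are descriptions of these letters and do not show binding in these cells.

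Levels were then compared between the genes. As longer transcripts give more reads, CPM was divided by the kilobases of merged exons of each gene in the GENCODE M21 annotation, on the same GRCm38 build. In the oil libraries Rela, the main transactivating subunit, was at 40.4 ± 1.89 CPM per kilobase and Nfkb1 at 21.4 ± 0.466 (SD, n = 3 each). The classical inhibitors Nfkbib and Nfkbia followed at 19.0 ± 1.54 and 17.4 ± 0.611 CPM per kilobase (SD, n = 3 each), and these 2 genes overlapped in range. Nfkb2, the precursor subunit of the non-canonical arm, was at 7.30 ± 0.501 and Nfkbie at 4.25 ± 0.131 CPM per kilobase (SD, n = 3 each). Relb, Nfkbiz and Nfkbid lay close together at 1.37 ± 0.217, 1.17 ± 0.130 and 0.968 ± 0.267 CPM per kilobase (SD, n = 3 each), each overlapping with the next in the order. Rel was the lowest, at 0.0661 ± 0.0277 CPM per kilobase (SD, n = 3), below Nfkbid without overlap. The order of Rela and Nfkb1 depends on the length used: by the longest annotated transcript Nfkb1 was at 62.3 and Rela at 45.7 CPM per kilobase in oil, as the merged exons of Nfkb1 span 12061 bases and its longest transcript 4149.

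**Figure D1:**
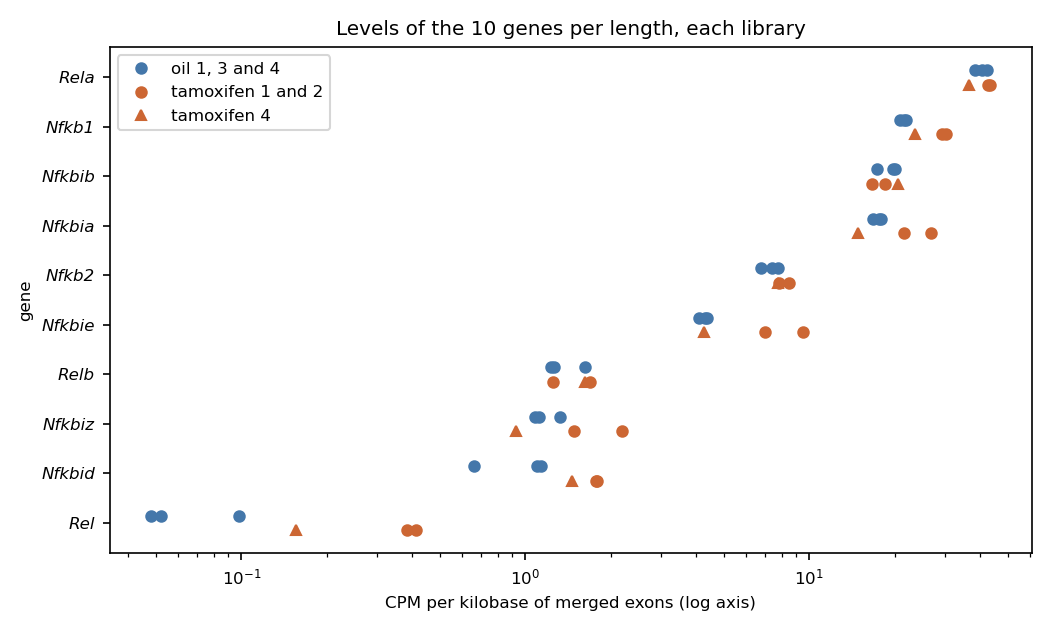
CPM per kilobase of merged exons (log axis) of each gene, with 1 point per library; blue circles are the oil libraries, orange circles tamoxifen 1 and 2, and orange triangles tamoxifen 4. Genes are ordered by their oil mean, from Rel at 0.0661 to Rela at 40.4 CPM per kilobase, and Rel is the gene whose tamoxifen points lie farthest to the right of its oil points.

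Among the subunits, Rel differed most. Rel (chromosome 11, 23736847 to 23770970, minus strand) encodes c-Rel, a subunit best known from activated lymphocytes. Its counts were 13, 8 and 7 for oil 1, 3 and 4, and 52.5, 51.5 and 21 for tamoxifen 1, 2 and 4. This gave 0.732, 0.388 and 0.360 CPM in oil, compared with 2.85, 3.07 and 1.16 CPM in tamoxifen. Every tamoxifen library lay above every oil library, and tamoxifen 4 lay closest to oil. The counts of oil 3 and oil 4 were too low for the filter, so Rel entered the test through the tamoxifen libraries, where it was high. The exact 95% Poisson interval of tamoxifen 4, 0.718 to 1.77 CPM, overlapped that of oil 1, 0.390 to 1.25 CPM, whereas the intervals of tamoxifen 1 and 2 began at 2.13 and 2.29 CPM. Such intervals hold only the error of counting and leave out the variation between libraries. Even for the error of counting they may be too narrow, as PCR copies of a molecule could not be recognised. On the log2 scale the difference was 2.26 (SE 0.50), or 4.78-fold, and missed the threshold at an edgeR adjusted p = 0.0669. The adjusted p was 0.00307 with the DESeq2 Wald test, 0.0404 without a filter on low counts and 0.00135 without tamoxifen 4, where the log2 fold change was 2.59. It was 0.117 with limma-voom and 0.196 to 0.258 when any other library was left out. With the replicate block, where the difference rests on libraries 1 and 4 of each group, it was 0.173. Rel made up 0.394% ± 0.148 of the summed subunit level per length in tamoxifen and 0.0941% ± 0.0413 in oil (SD, n = 3 each).

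Rel is well expressed in other blood cells, so their markers are given beside it. Of 7 B cell markers 0 passed the filter, and Ms4a1 and Pax5 had 0 counts in all libraries; their summed level was 0.154 to 0.775 CPM in oil and 0.590 to 1.76 CPM in tamoxifen. Of 7 T and NK cell markers in the table, Cd3e, Cd8a, Klrb1c and Ncr1 had 0 counts throughout, and the sum was 2.48 to 3.30 CPM in oil and 1.24 to 3.20 CPM in tamoxifen. Nearly all of this sum was Lck, which was lower without tamoxifen 4 (edgeR adjusted p = 0.0491). Neutrophil markers summed to at most 1.03 CPM in any library, with S100a8 and Ly6g at 0 counts. Of 7 dendritic cell markers, Clec9a, Siglech, Flt3 and Cd209a were at 0 counts, and the sum was 3.65 to 6.02 CPM in oil and 2.74 to 3.31 CPM in tamoxifen. Most of this sum was Zbtb46. Of 10 macrophage markers 6 were tested and 0 passed the edgeR threshold, while 1 had an unadjusted p-value under 0.05 and 1 was higher without tamoxifen 4; their sum was 3.34 to 7.49 CPM in oil and 5.41 to 9.98 CPM in tamoxifen. Mast cell and basophil markers summed to 1321 to 1499 CPM in oil and to 2441, 4795 and 1917 CPM in tamoxifen 1, 2 and 4. Of these 8 markers 2 rose with edgeR over all libraries, against 1.75% of all genes, DESeq2 called 6 higher, against 6.14%, and 7 were higher without tamoxifen 4, against 19.2%. Of 5 markers of the leukemic progenitors, edgeR called 1 higher, against 1.75% of all genes, and DESeq2 called 2, against 6.14%. Without tamoxifen 4, 3 were higher, against 19.2%. The 1 called by edgeR was Cd34, which rose from 9.95 ± 1.66 to 96.3 ± 48.3 CPM (SD, n = 3 each), with tamoxifen 4 at 41.8 CPM. Myb and Gfi1b had log2 fold changes of 0.079 and 0.043 (edgeR adjusted p = 0.599 and 0.805). The part of such cells or states in the level of Rel was not tested.

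Nfkb1 (chromosome 3, 135584655 to 135691547, minus strand), the precursor subunit of the canonical arm, was at 264, 259 and 252 CPM in oil 1, 3 and 4. In tamoxifen 1, 2 and 4 it was at 353, 367 and 284 CPM. The groups did not overlap, and the oil libraries lay close together. The difference of 0.37 on the log2 scale (SE 0.11), or 1.29-fold, had an edgeR adjusted p = 0.127. The adjusted p was 0.0399 with DESeq2 and 0.00057 without tamoxifen 4, where the log2 fold change was 0.48 (SE 0.066).

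The other 3 subunits differed less. Rela (chromosome 19, 5637483 to 5648130) was at 118, 130 and 124 CPM in oil 1, 3 and 4, compared with 131, 133 and 112 CPM in tamoxifen 1, 2 and 4. The groups overlapped, as tamoxifen 1 and 2 lay above the oil range and tamoxifen 4 below it. The log2 fold change was 0.016 (SE 0.095, edgeR adjusted p = 0.936), and its sign turned with the library left out. Nfkb2 (chromosome 19, 46304320 to 46312385) was at 34.0, 35.5 and 31.0 CPM in oil, compared with 36.0, 38.9 and 35.5 CPM in tamoxifen, a log2 fold change of 0.14 (SE 0.10, edgeR adjusted p = 0.450). Relb (chromosome 7, 19606217 to 19629438), the partner of the processed Nfkb2 product, was at 4.90, 6.30 and 4.78 CPM in oil, compared with 4.88, 6.55 and 6.30 CPM in tamoxifen, a log2 fold change of 0.15 (SE 0.21, edgeR adjusted p = 0.704). Neither passed the threshold without tamoxifen 4. Of the merged exons of Nfkb2, 18.1% of bases lie under exons of opposite-strand genes, and the strand setting of the counts is not given in the sources used here. Within the summed subunit level per length, the share of Nfkb1 was 31.6%, 29.4% and 30.1% in oil and 36.0%, 36.1% and 33.8% in tamoxifen, whereas the share of Rela was 55.7%, 57.7% and 58.3% in oil and 52.3%, 51.4% and 52.5% in tamoxifen. Shares of a whole are tied to each other, and these are given without a test.

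**Figure D2:**
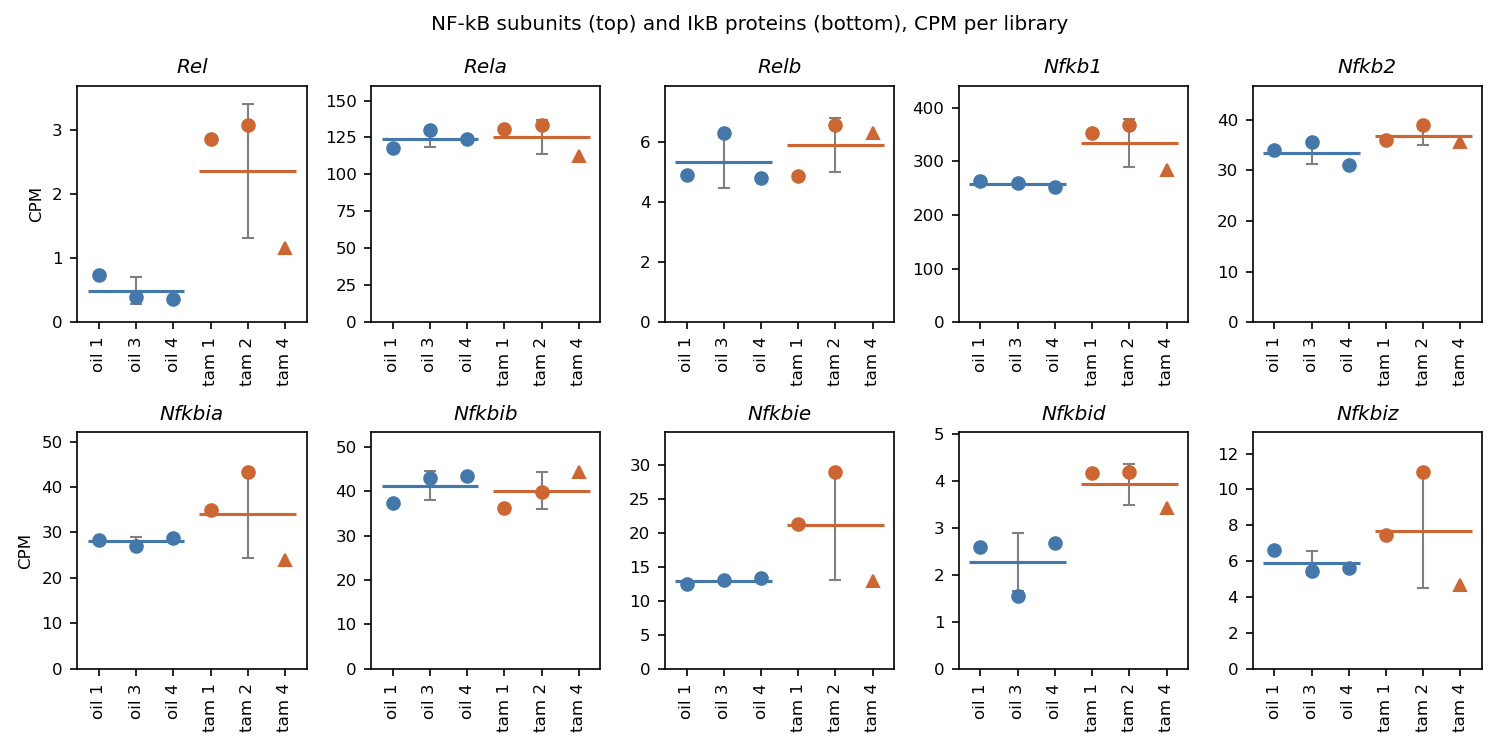
CPM of each gene in each library, with its own axis from 0; points are libraries (oil blue, tamoxifen orange, tamoxifen 4 a triangle), horizontal lines are group means and grey bars the SD over 3 libraries. Rel, Nfkb1 and Nfkbid are the genes whose tamoxifen points all lie above their oil points.

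Among the classical inhibitors, Nfkbie had the log2 fold change farthest from 0. Nfkbie (chromosome 17, 45555703 to 45563169), which encodes IκBε, was at 12.5, 13.04 and 13.3 CPM in oil 1, 3 and 4, compared with 21.3, 28.9 and 12.9 CPM in tamoxifen 1, 2 and 4. The oil libraries lay close together, tamoxifen 1 and 2 lay far above them, and tamoxifen 4 lay inside the oil range. The log2 fold change was 0.70 (SE 0.26, edgeR adjusted p = 0.203) and, without tamoxifen 4, 0.96 (SE 0.15, edgeR adjusted p = 0.00114). In the summed IκB level per length, Nfkbie took 9.90%, 10.1% and 9.78% in oil and 14.4%, 16.2% and 10.1% in tamoxifen.

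Nfkbia (chromosome 12, 55489410 to 55492647), which encodes IκBα, the inhibitor that NF-κB itself induces and that ends its response, was likewise high in tamoxifen 1 and 2 but, unlike Nfkbie, below the oil range in tamoxifen 4. It was at 28.4, 26.9 and 28.8 CPM in oil, compared with 34.8, 43.3 and 23.98 CPM in tamoxifen 1, 2 and 4. Tamoxifen 4 was the lowest of all 6 libraries and tamoxifen 2 the highest. Over all libraries the log2 fold change was 0.28 (SE 0.20, edgeR adjusted p = 0.429) and without tamoxifen 4 it was 0.48 (SE 0.12, edgeR adjusted p = 0.0101). Nfkbib (chromosome 7, 28758251 to 28767512), which encodes IκBβ, was the exception in its class. It was at 37.5, 42.9 and 43.5 CPM in oil, compared with 36.2, 40.0 and 44.4 CPM in tamoxifen, so the groups overlapped. Its log2 fold change of -0.040 (SE 0.11, edgeR adjusted p = 0.854) was the sole negative value among the 10 genes. Of its merged exons, 16.4% of bases lie under exons of opposite-strand genes.

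The nuclear IκB genes were low throughout. Nfkbid (chromosome 7, 30421732 to 30428746), which encodes the nuclear regulator IκBNS, was at 2.59, 1.55 and 2.68 CPM in oil 1, 3 and 4, compared with 4.17, 4.19 and 3.43 CPM in tamoxifen 1, 2 and 4. The groups did not overlap, with tamoxifen 4 the lowest of its group. These values rest on 32 to 76.5 counts per library, and the exact 95% Poisson interval of tamoxifen 4, 2.63 to 4.39 CPM, overlapped that of oil 4, 2.00 to 3.51 CPM. Its log2 fold change was 0.79 (SE 0.29, edgeR adjusted p = 0.196) and, without tamoxifen 4, 0.88 (SE 0.31, edgeR adjusted p = 0.0471). Nfkbiz (chromosome 16, 55811375 to 55838899), which encodes IκBζ, a co-activator of secondary response genes, was at 6.64, 5.43 and 5.61 CPM in oil, compared with 7.46, 10.98 and 4.64 CPM in tamoxifen. Tamoxifen 2 was the highest and tamoxifen 4 the lowest of the 6 libraries. Nfkbiz had a log2 fold change of 0.38 (SE 0.30, edgeR adjusted p = 0.472) and, without tamoxifen 4, 0.65 (SE 0.22, edgeR adjusted p = 0.0399).

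The 10 genes were then counted together. With all 6 libraries 0 of 10 passed the edgeR threshold, against 2.01% of all genes tested in either direction. At an unadjusted p-value under 0.05, 4 were higher (Rel, Nfkb1, Nfkbie and Nfkbid) and 0 lower, where 12.6% of all genes were higher and 7.99% lower. DESeq2 called 2 of them, Rel and Nfkb1, against 6.14% of its genes higher and 1.99% lower, and limma-voom called 0. The median log2 fold change was 0.33, beside 0.00012 over all genes. The groups did not overlap for 3 of the 10 genes, against 25.1% of all genes. All 3 lay above oil and 0 below, against 13.3% and 11.8% of all genes. In tamoxifen 1 and 2 alone, 8 of the 10 lay above every oil library in both, against 30.8% of all genes, and 0 lay below every oil library in both, against 30.6%. Tamoxifen 4 lay above the oil range for 4 genes, within it for 3 and below it for 3, against 31.4%, 38.2% and 30.4% of all genes. Without tamoxifen 4, 6 of the 10 were higher with an edgeR adjusted p-value under 0.05, Rel, Nfkb1, Nfkbia, Nfkbie, Nfkbid and Nfkbiz, and 0 were lower, against 19.2% and 17.1% of all genes in that fit, 36.3% in either direction. Their median log2 fold change was then 0.48, beside 0.0046 over all genes. Leaving out any other library left 0 of the 10 called. The 3 subunits Rela, Relb and Nfkb2 and the inhibitor Nfkbib did not pass the threshold in any of these fits. Rel is among the genes counted as higher or above oil here. It passed the filter through the tamoxifen libraries, where it was high, so its place in these counts is not independent of the filter.

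**Figure D3:**
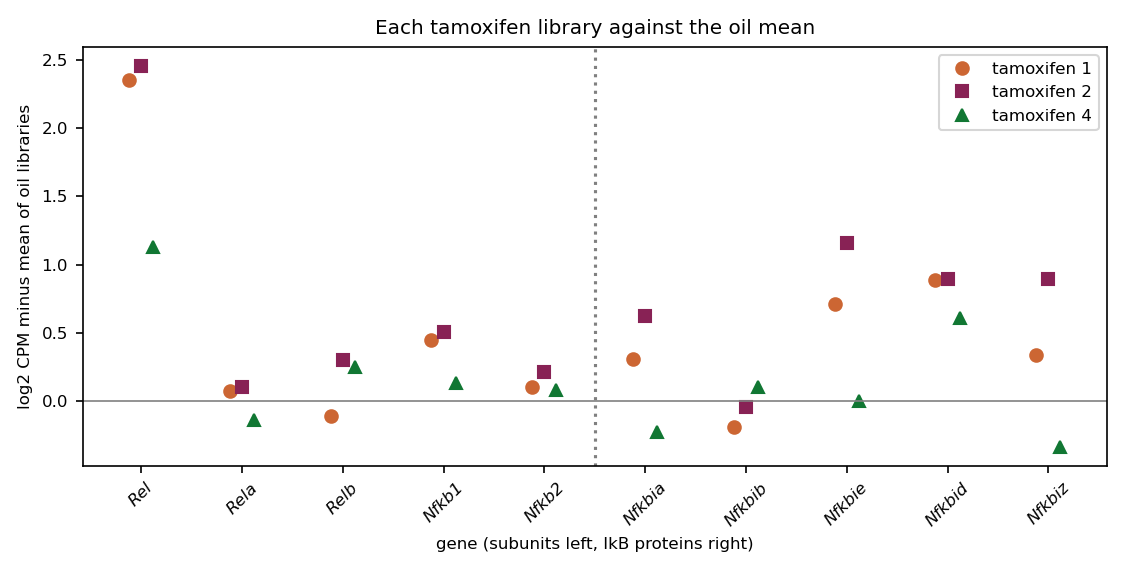
Log2 CPM (prior count of 2) of each tamoxifen library minus the mean of the oil libraries, for the subunits (left of the dotted line) and the IκB genes (right). Tamoxifen 1 and 2 lie above 0 for all but Relb and Nfkbib, whereas tamoxifen 4 (triangles) is at 1.13 for Rel and 0.61 for Nfkbid but at -0.23 for Nfkbia and -0.33 for Nfkbiz.

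**Figure D4:**
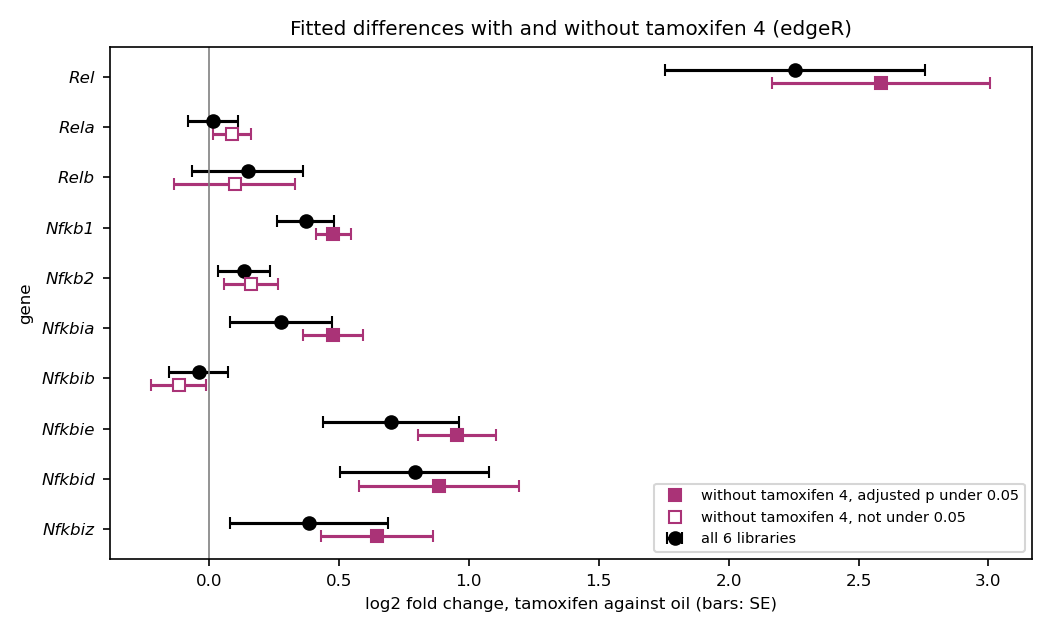
Log2 fold change of tamoxifen against oil with its SE for each gene, with all 6 libraries (circles) and without tamoxifen 4 (squares, filled where the edgeR adjusted p-value was under 0.05). Filled squares mark 6 genes, with Rel at 2.59 the farthest from 0.

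The balance of the 2 classes was compared by summing levels per length. The subunits summed to 69.1, 73.2 and 69.4 CPM per kilobase in oil 1, 3 and 4 and to 81.3, 84.4 and 69.7 in tamoxifen 1, 2 and 4. The IκB genes summed to 41.5, 42.6 and 44.6 CPM per kilobase in oil and to 48.6, 58.8 and 42.0 in tamoxifen. The ratio of IκB to subunit level was 0.600, 0.582 and 0.642 in oil and 0.598, 0.697 and 0.603 in tamoxifen, so the groups overlapped. Both sums were highest in tamoxifen 2 and, in tamoxifen 4, close to the oil values. The subunit sum and the ratio depend on the length used. By merged exons Nfkb1 was at 21.4 CPM per kilobase in oil, and by the longest transcript at 62.3. The latter length would raise the subunit sum and lower the ratio, which was computed for merged exons only.

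Genes with a pattern like that of Rel were sought over the 6 libraries, among 11135 tested genes with a mean of at least 1 CPM. The 5 with the highest Pearson correlation of log2 CPM were Dlgap4 (r = 0.998), 2410002F23Rik (0.998), Pctp (0.996), Rsph3a (0.994) and Pkm (0.994). Dlgap4 was at 9.23, 7.42 and 6.95 CPM in oil 1, 3 and 4, compared with 15.1, 15.7 and 10.4 CPM in tamoxifen 1, 2 and 4. It thus had the order seen for Rel, with tamoxifen 1 and 2 alike and high and tamoxifen 4 between them and oil. Among the other members Nfkb1 came closest, at r = 0.971, followed by Nfkbid at 0.868 and Nfkbie at 0.858. These 3 ranked 63, 981 and 1078 among the 11135 genes, so many genes outside the family were more like Rel. Nfkb2, Nfkbia and Nfkbiz were at 0.769, 0.717 and 0.709, while Rela and Relb were at 0.315 and 0.199 and Nfkbib at -0.560. These correlations describe 6 libraries that share 1 split into groups, and carry no test.

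Other genes of the pathway were taken from lists of 49 signaling genes, of which 44 were tested. Of these, 2 rose with an edgeR adjusted p-value under 0.05 and 0 fell, against 1.75% and 0.267% of all genes, and their median log2 fold change was 0.10. Among 5 IKK and IKK-related kinases, Ikbke rose. It encodes IKKε, a kinase that acts mainly in antiviral signaling, and went from 13.1, 11.7 and 10.6 CPM in oil to 23.2, 24.7 and 22.2 CPM in tamoxifen, without overlap and with tamoxifen 4 close to its group. The difference was 0.98 on the log2 scale (SE 0.13, edgeR adjusted p = 0.0267). The core kinase genes Chuk, Ikbkb and Ikbkg did not pass, at log2 fold changes of -0.19, 0.16 and 0.045. Tbk1 did not pass either, at 0.27 (SE 0.099, edgeR adjusted p = 0.197). Without tamoxifen 4, Tbk1 was higher (edgeR adjusted p = 0.00439) and Chuk lower (0.0322). Of the 5 kinases 3, Ikbke, Ikbkb and Tbk1, lay above oil without overlap and 1, Chuk, below it, against 13.3% and 11.8% of all genes. Among 15 tested feedback inhibitors and co-regulators Nlrc3, a negative regulator of innate signaling, rose. It went from 13.8, 20.5 and 20.0 CPM in oil to 92.7, 101 and 33.0 CPM in tamoxifen 1, 2 and 4, which is 2.06 on the log2 scale (SE 0.39, edgeR adjusted p = 0.0434). Both calls were lost when any library other than tamoxifen 4 was left out, with adjusted p-values of up to 0.145 for Ikbke and 0.217 for Nlrc3, and limma-voom gave 0.106 for Nlrc3. Without tamoxifen 4, 15 of 46 tested pathway genes were higher and 4 lower, against 19.2% and 17.1% of all genes. Of the 44 tested with all libraries, 14 were higher and 4 lower in this fit. The other was Pdlim2, with 4, 3.5 and 7 counts in oil and 23 and 22.5 in tamoxifen 1 and 2. Pdlim2 passed the filter only through the tamoxifen libraries, where it was high.

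Tnfaip3 and Bcl3, close partners of the IκB genes, were named after their values were seen. Tnfaip3, a ubiquitin-editing enzyme that NF-κB induces and that restrains it, was at 34.6, 35.5 and 36.1 CPM in oil, compared with 70.6, 74.4 and 25.7 CPM in tamoxifen 1, 2 and 4. As for Nfkbia, tamoxifen 4 was the lowest of the 6 libraries, and the edgeR adjusted p was 0.290 over all libraries and 3.43e-05 without it. Bcl3, an atypical nuclear IκB, had a log2 fold change of -0.0042 (SE 0.31, edgeR adjusted p = 0.995).

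No gene passed among the 20 tested canonical adaptors and ligases with edgeR, where 1 was higher and 2 lower at an unadjusted p-value under 0.05 and DESeq2 called 0. The values farthest from 0 were 0.58 for Birc3 (edgeR adjusted p = 0.208), which encodes an inhibitor of apoptosis, -0.29 for Tab3 (0.188) and -0.27 for Tradd (0.310), both adaptors. Without tamoxifen 4 the edgeR adjusted p was 0.000219 for Birc3, 0.0221 for Tab3 and 0.106 for Tradd. Of the 4 tested genes of the non-canonical arm 0 passed with edgeR or DESeq2, and 1 had an unadjusted p-value under 0.05. Their values farthest from 0 were 1.12 for the receptor Tnfrsf13c (edgeR adjusted p = 0.373), 0.86 for the kinase Map3k14 (0.188) and -0.15 for the receptor Ltbr (0.571). Without tamoxifen 4 the edgeR adjusted p was 0.0424 for Tnfrsf13c, 0.0871 for Map3k14 and 0.420 for Ltbr. Map3k14 was low, at 1.31 ± 0.161 CPM in oil and 2.40 ± 0.544 CPM in tamoxifen (SD, n = 3 each), without overlap of the groups.

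**Figure D5:**
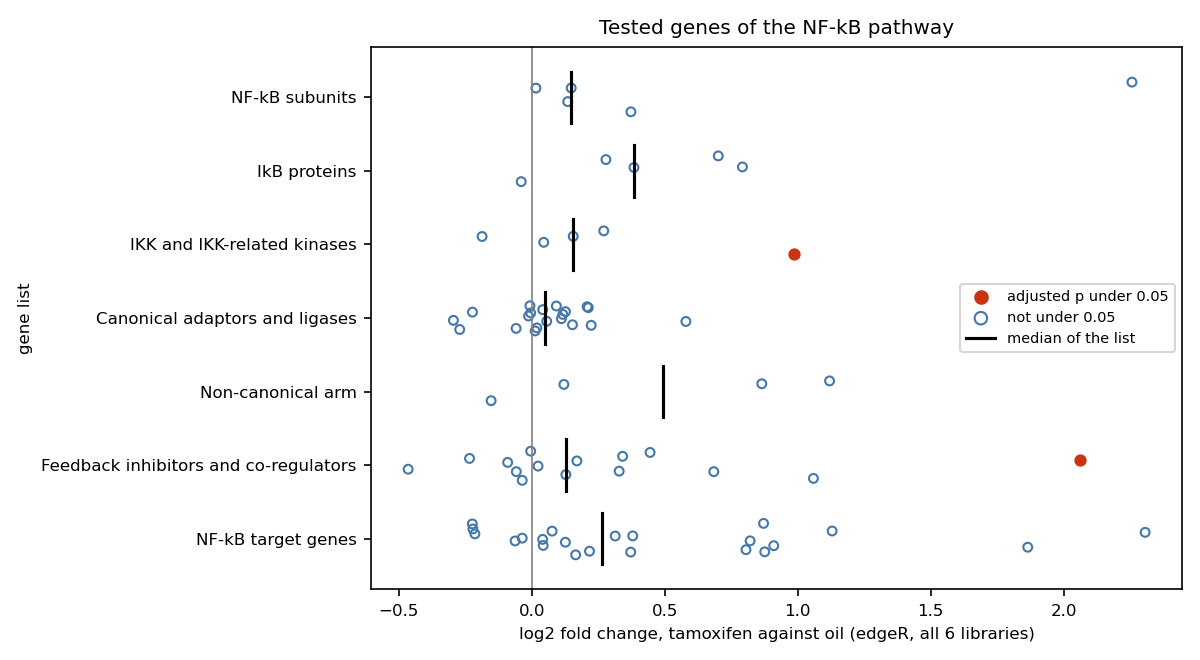
Log2 fold change of tamoxifen against oil (edgeR, all 6 libraries) for each tested gene of the 7 lists; red points passed an adjusted p-value under 0.05 and black ticks are list medians. The red points are Ikbke at 0.98 and Nlrc3 at 2.06, and Rel at 2.26 and Slc2a6 at 2.31 are the open points farthest to the right.

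Known NF-κB target genes were counted from a list of 45 with none of the 10 members in it. Of these, 22 were tested and 23 had too few counts, and 10 of the list had 0 counts in all libraries, among them Cxcl1, Cxcl2, Ccl2, Ccl3, Ccl4 and Ptgs2. A count of 0 allows up to 0.177 CPM at this depth. With edgeR 0 of 22 passed the threshold, while 10 were higher and 2 lower at an unadjusted p-value under 0.05, against 12.6% and 7.99% of all genes. DESeq2 called 5 higher, against 6.14% of its genes, and limma-voom called 0. The median log2 fold change was 0.27. Slc2a6, a sugar transporter, was at 0.225, 0.630 and 0.823 CPM in oil, compared with 1.70, 6.14 and 0.663 CPM in tamoxifen, a log2 fold change of 2.31 (edgeR adjusted p = 0.190, 0.00613 without tamoxifen 4, and 0.0451 with DESeq2). Vcam1, an adhesion molecule that splenic macrophages also express, was at 1.01, 0.969 and 0.514 CPM in oil, compared with 3.02, 4.25 and 1.88 CPM in tamoxifen, a log2 fold change of 1.86 (edgeR adjusted p = 0.0696, 0.0437 without a filter, 0.00254 without tamoxifen 4, and 0.00331 with DESeq2). Cd80, a costimulatory ligand, had a log2 fold change of 1.13 (edgeR adjusted p = 0.163, and 0.0828 without tamoxifen 4). The cytokine genes given here were chosen after their values were seen, and each had too few counts for the test. Tnf had 1, 0 and 2 counts in oil and 4, 21 and 2 in tamoxifen, so oil 4 and tamoxifen 4 held the same count. Il6 had 0, 4 and 0 in oil and 11, 5.5 and 5 in tamoxifen. The groups overlapped for Il1b, with 2, 4 and 2 counts in oil and 2.5, 8 and 3 in tamoxifen. They also overlapped for Ccl5, with 3, 0 and 0 counts in oil and 7.5, 16.5 and 3 in tamoxifen. Without tamoxifen 4, 10 of 23 tested target genes were higher and 2 lower, against 19.2% and 17.1% of all genes. Of the 22 tested with all libraries, 9 were higher and 2 lower in this fit. The other was Csf1, with 4, 0 and 0 counts in oil and 30 and 33 in tamoxifen 1 and 2. Csf1 passed the filter only through the tamoxifen libraries, where it was high.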

How the data were processed

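Lin- c-Kit+ GFP+ splenocytes of 3 oil and 3 tamoxifen recipients were profiled by paired-end RNA-seq. The authors used STAR and DESeq2 with mm10, per the labels, and deposited unscaled estimated counts per gene symbol, all multiples of 0.5. The counting program, annotation and strand setting are not given in the sources used here. Titles number the libraries 1, 2 and 4 (oil) and 1, 3 and 4 (tamoxifen), and the table numbers them 1, 3 and 4 and 1, 2 and 4; oil 3 and tamoxifen 2 were used by group only. A spreadsheet had turned 26 symbols into dates; these rows stayed in the library sizes.

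Counts were rounded and analysed in R 4.3.3 with edgeR 4.0.16 (filterByExpr, TMM, quasi-likelihood F test, no block). P-values were adjusted by Benjamini-Hochberg over all 11614 genes, with a threshold of 0.05. SEs were derived from the F statistics. Alternatives were DESeq2 size factors, upper-quartile scaling, the DESeq2 1.42.0 Wald test, limma-voom (limma 3.58.1), no filter, a mean of 50 counts, unrounded counts, a replicate block and each library left out. Scripts were tested on simulated data. The planned protein comparison was not run. Members and lists were chosen with earlier results of these data known. Named pathway and target genes are those passing the threshold in each list or, where none did, the 3 with the largest absolute log2 fold change, and others are said to be chosen after their values were seen.

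Libraries held 17118964 to 20741399 counts, and 3 counts corresponded to 0.145 to 0.177 CPM. Replicates differed beyond sampling noise (chi-square over its degrees of freedom, 7.14 or more).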

Additional observations from a re-analysis of the deposited data

How the results depend on the processing

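Over all genes, 713 were higher and 231 lower by the DESeq2 Wald test, 48 and 6 by limma-voom, 372 and 61 among the 15356 genes with any count, and 120 and 17 at a mean of 50 counts or more, where fewer genes were tested. Leaving out 1 library at a time gave 8 to 2278 higher and 0 to 2024 lower. Of the 10 NF-κB and IκB genes, DESeq2 called 2, Rel and Nfkb1, and the fit without a filter 1, Rel; leaving out a library gave 0 to 6, the latter without tamoxifen 4. Rel has too few counts for the filter at a mean of 50. Of the pathway genes 1 was higher by limma-voom and 1 at a mean of 50 counts; leaving out a library gave 0 to 15 higher and 0 to 4 lower. Of the target genes DESeq2 called 5 higher and the fit without a filter 1; leaving out a library gave 0 to 10 higher and 0 to 2 lower. For these settings the cause was not tested.

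Directions held for 7 of the 10 genes. The log2 fold change of Rela was -0.020 without oil 1, -0.015 without tamoxifen 1 and -0.027 without tamoxifen 2, within a range up to 0.089 without tamoxifen 4. That of Nfkbib was 0.030 without tamoxifen 1 and as low as -0.12 without tamoxifen 4, and that of Nfkbiz was -0.048 with the replicate block. Numbers 1 and 4 alone occur in both groups; their deviations from the group means correlated at -0.13 and 0.062, which is no pairing. Fitted with the replicate block, 215 genes passed as higher, 26 as lower and 0 of the 10 in either direction.

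By the length of the longest transcript, oil levels in CPM per kilobase were 45.7 for Rela, 1.63 for Relb, 62.3 for Nfkb1, 8.71 for Nfkb2 and 1.43 for Nfkbiz. The shares were then 38.6% and 33.4% for Rela and 52.6% and 58.1% for Nfkb1 in oil and tamoxifen, 0.222% for Rel in tamoxifen and 9.63% for Nfkbie in oil. With a prior count of 0.5, 4 of the 5 genes most like Rel stayed among the top 5.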
